A study of Mus musculus with 4 samples.

Results

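The genes examined here are Parp1, Parp2, Parp3, Brca1, Bard1, Palb2, Brca2, Atm and Atr, which sense DNA breaks or carry out and control repair by homologous recombination. They were chosen by gene name, and all 9 were found among the 56748 genes of the count table. RNA was sequenced from lungs of female BALB/cJ mice that carried metastases of 4T1-FLuc, a mouse triple-negative breast cancer (TNBC) line with a luciferase reporter, given intravenously at 7 weeks of age. The control group (2 samples) is named saline in the sample titles and PBS control in the treatment field. The treated group (2 samples) received CD276-DM1, an antibody-drug conjugate (ADC) with the microtubule poison mertansine (DM1), together with cmLumiOpto, a viral vector under a cfos promoter that places a light-gated channel in the mitochondria of cancer cells. The treatment field reads cmLumi-Olap & CD276-DM1 16mg/kg, whereas an ADC dose of 8 mg/kg stands in the methods, which do not explain Olap, so whether these mice also received a further drug is not known here. Had they received one that acts on the PARP proteins, its effect on the genes described here could not be told apart from that of the other agents. The labels describe tumor cells harvested from the lungs after 3 weeks of treatment, whereas the methods describe dissociated lung tissue and 4 samples per group, of which 2 per group were analyzed. Mice given ADC alone or cmLumiOpto alone were not analyzed here, so the agents cannot be told apart.

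PARP1, PARP2 and PARP3 bind broken DNA and attach ADP-ribose to themselves and to nearby proteins, which recruits repair factors. At double-strand breaks the kinase ATM starts signaling and the kinase ATR responds to the single-stranded DNA that is left after the ends are trimmed. BRCA1 with its partner BARD1 favors trimming of the ends, PALB2 bridges BRCA1 to BRCA2, and BRCA2 acts in the step that starts copying from the sister chromatid, which restricts the pathway largely to cells in S and G2 phase. Cells without BRCA1 or BRCA2 are known to be sensitive to inhibitors of PARP, and for that reason both groups of genes are of interest in TNBC.

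In the lungs given ADC/cmLumiOpto, Brca1, Bard1 and Brca2 were each at 0.555 to 0.567 of their saline level, Parp3 was higher, Parp1, Atm and Atr were lower by smaller amounts, and Parp2 and Palb2 hardly differed. No adjusted p of the 9 was under 0.05 by the edgeR quasi-likelihood F test (Benjamini-Hochberg), nor was that of any of the 15320 genes tested (0%). At an unadjusted p under 0.05, 5 of the 9 genes were found, 4 lower and 1 higher, against 23.2% of all tested genes (12.2% lower and 11.0% higher). This count was lower in every fit with 1 sample left out, which leaves 1 sample in a group. In those fits the log2 fold change was -0.94 to -0.69 for Brca1, -1.0 to -0.69 for Bard1 and -1.11 to -0.63 for Brca2. It was -0.69 to -0.47 for Atr and 0.43 to 0.50 for Parp3, so all 5 kept their direction. For 6 genes the treated samples were both lower than either saline sample, as for 28.8% of all tested genes, and for 1 gene both lay above, as for 28.1%. The median log2 fold change was -0.33 over the 9 genes and 0.028 over all tested genes. The smallest two-sided p of an exact permutation test at this size is 0.333, so every p given is from a model fitted across all genes.

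The samples held from 15263375 to 19675436 counted reads. A detection floor of 3 counts corresponds to 0.152 to 0.197 CPM (counts scaled to library size), and covers counting error only. Every count of the 9 genes was at least 69. The samples held RNA of several tissues besides the tumor. All 7 markers listed for tumor epithelium (Epcam, Cdh1 and 5 keratins) were counted in every sample, with a summed level of 2869 to 3349 CPM. Of these, 3 were higher and 4 lower after treatment. They mark epithelium, and RNA of tumor and of lung epithelium was not separated, so their sum does not measure tumor content. The 8 alveolar and airway markers, also all present, summed to 2678 and 418 CPM in the saline samples and to 11674 and 7720 CPM in the treated samples, and all 8 were higher after treatment. The 6 fibroblast markers, all lower, went from 5117 and 3534 CPM to 1759 and 1455 CPM. The 6 endothelial markers summed to 474, 367, 475 and 714 CPM. The 8 leukocyte markers summed to 683, 404, 718 and 3520 CPM, highest in ADC/cmLumiOpto replicate 2. S100a8 had 63353 counts in that sample, against 7262, 2526 and 7452 in the others. Ptprc, Itgam and Ly6g also had more counts there than in ADC/cmLumiOpto replicate 1. Cd3e (142 and 60 counts in treated replicates 1 and 2) and Nkg7 (323 and 130) had fewer, and Cd68 (1883 and 1904) hardly differed. In bulk samples, fewer cells of a type and less RNA of a gene per cell cannot be told apart.

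**Figure D1:**
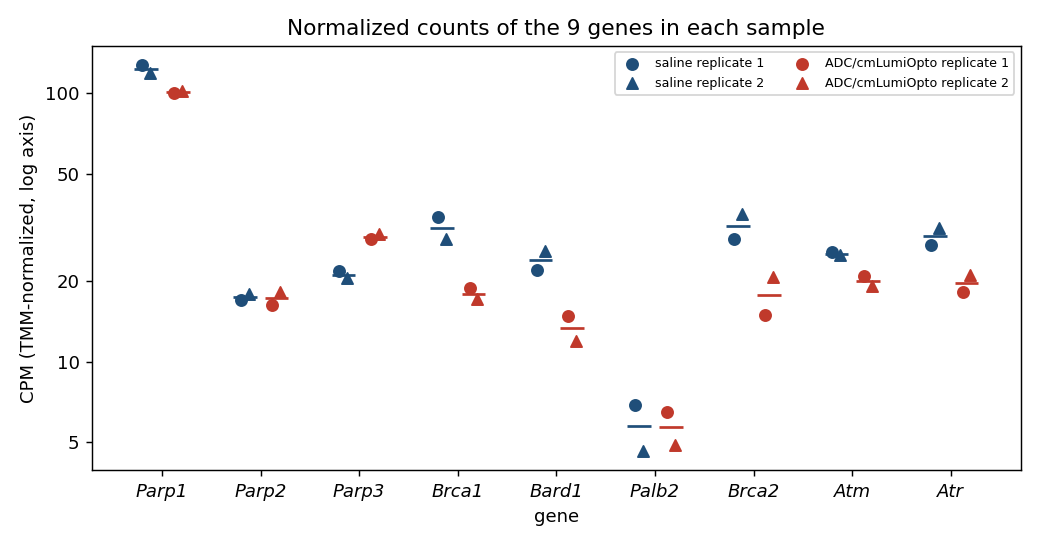
Normalized counts (CPM, log axis) of the 9 genes in the 2 saline samples (blue) and the 2 ADC/cmLumiOpto samples (red), with circles for replicate 1, triangles for replicate 2 and bars for the group means. Brca1, Bard1, Brca2, Parp1, Atm and Atr lay lower in both treated samples, Parp3 lay higher in both, and Parp2 and Palb2 overlapped.

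Parp1 (ENSMUSG00000026496, chr1:180396489-180428819, plus strand) encodes the enzyme that makes most of the poly(ADP-ribose) of a damaged cell. Positions here are those listed with the counts, for which the labels name the build mm39. Parp1 was at 127 and 119 CPM in the saline samples and at 100 and 102 CPM in the ADC/cmLumiOpto samples. Parp1 was lower in each treated sample, by a margin larger than the spread of 5.92 CPM (SD, n = 2) in the saline group. The log2 fold change was -0.28 (standard error 0.16, 95% interval -0.66 to 0.089, adjusted p = 0.311 in edgeR), an interval that includes no change.

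Parp2 (ENSMUSG00000036023, chr14:51045298-51058758, plus strand), which acts beside PARP1 at breaks and supplies the remaining share of the polymer, was at 16.9 and 17.9 CPM in the saline samples and at 16.2 and 18.2 CPM in the treated samples. The treated samples enclosed the saline samples. Its log2 fold change of -0.017 (standard error 0.21) had a 95% interval of -0.53 to 0.50, which spans 0.691 to 1.41 of the saline level, and the sign turned with library-size scaling (0.032) and upper-quartile scaling (0.067).

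Parp3 (ENSMUSG00000023249, chr9:106347521-106354148, minus strand), which transfers mainly single ADP-ribose units and takes part in end joining of breaks, was the gene among the 9 that was higher after treatment. It was at 21.7 and 20.5 CPM in the saline samples and at 28.6 and 29.8 CPM in the ADC/cmLumiOpto samples. The groups did not overlap, and the SD was 0.849 CPM (n = 2) in the saline group and 0.864 CPM (n = 2) in the treated group. The log2 fold change was 0.47 (standard error 0.18, 95% interval 0.031 to 0.91, unadjusted p = 0.0395, adjusted p = 0.196 in edgeR). Leaving out any one sample gave 0.43 to 0.50. The first 987 bases of Parp3 overlap Rrp9, a ribosome biogenesis gene on the opposite strand, and the strand setting of the counting is not given in the sources used here, so reads of the overlap cannot be assigned with certainty. Rrp9 was at 36.5 and 37.0 CPM without treatment and at 40.8 and 37.4 CPM with it, for a log2 fold change of 0.088.

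Levels of different genes were compared as CPM per kilobase of the gene length listed with the counts. How that length was defined is not given in the sources used here. Parp1 was the highest of the 9 in every sample, at 24.03 and 22.4 under saline and 18.9 and 19.2 after treatment. Parp3 was second, at 5.86 and 5.53 and then 7.73 and 8.06, and Parp2 came after it, at 4.66, 4.94, 4.48 and 5.01, all on this per-length scale. By group means the order continued with Bard1, Brca1, Atm, Brca2, Atr and Palb2 in both groups, and Brca1 and Bard1, Atm and Brca2, and Atr and Palb2 each changed places in 1 sample. The ratio of Parp3 to Parp1 was 0.244 and 0.246 under saline and 0.409 and 0.419 after treatment. The ratio of Parp2 to Parp1 was 0.194 and 0.220 and then 0.237 and 0.260. Relative to Parp1, both other genes were thus higher in each treated sample than in each saline sample.

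Brca1 (ENSMUSG00000017146, chr11:101379590-101442781, minus strand) had the smallest p of the 9 genes. It was at 34.5 and 28.6 CPM in the saline samples and at 18.8 and 17.0 CPM in the ADC/cmLumiOpto samples. The highest treated sample lay well below the lowest saline sample, and the means were 31.6 ± 4.18 CPM (SD, n = 2) and 17.9 ± 1.23 CPM (SD, n = 2). The log2 fold change was -0.82 (standard error 0.20, 95% interval -1.30 to -0.33, unadjusted p = 0.00567, adjusted p = 0.123 in edgeR), or 0.567 of the saline level, and -0.94 to -0.69 with any one sample left out. Ordered by p, it was gene 705 of the 15320 tested.

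Bard1 (ENSMUSG00000026196, chr1:71066657-71142305, minus strand), whose product is the partner of BRCA1, was at 22.0 and 25.8 CPM in the saline samples and at 14.8 and 11.9 CPM in the treated samples. The groups did not overlap. Its log2 fold change was -0.84 (standard error 0.23, 95% interval -1.40 to -0.28, unadjusted p = 0.00968, adjusted p = 0.127 in edgeR), and -1.0 to -0.69 with any one sample left out. On the per-length scale the ratio of Brca1 to Bard1 was 1.04 and 0.736 under saline and 0.840 and 0.951 after treatment. The treated ratios fell inside the saline range, so no difference in the balance of the partners was detectable.

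Brca2 (ENSMUSG00000041147, chr5:150446095-150493794, plus strand) was at 28.5 and 35.6 CPM in the saline samples and at 14.9 and 20.7 CPM in the ADC/cmLumiOpto samples. Again the groups did not overlap, although the replicates of each group were further apart than for Brca1. This gave a log2 fold change of -0.85 (standard error 0.24, 95% interval -1.43 to -0.27, unadjusted p = 0.0109, adjusted p = 0.133 in edgeR). Leaving out any one sample moved it between -1.11 and -0.63.

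Palb2 (ENSMUSG00000044702, chr7:121706485-121732208, minus strand), the bridge between both BRCA proteins, had the fewest counts of the 9 genes in every sample, with 110 and 69 under saline and 115 and 100 after treatment. These counts correspond to 6.87, 4.65, 6.51 and 4.87 CPM, so that the groups overlapped. The log2 fold change of -0.019 (standard error 0.37) had a 95% interval of -0.90 to 0.86, wide enough to include the values of Brca1, Bard1 and Brca2, and whether Palb2 behaved differently from them was not tested. Its sign turned under several alternatives, among them 0.16 with a trend on gene length removed.

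The call of these genes depended on the test. The edgeR exact test, which called 7.64% of all tested genes at an adjusted p of 0.05 (3.68% lower), gave Brca1 an adjusted p of 0.0380. DESeq2, which called 8.69% (4.94% lower), gave Brca1 an adjusted p of 0.0303 and Brca2 of 0.0484. Without the filter on low counts, the quasi-likelihood test called 8.84% of 25563 genes (4.05% lower), and Brca1, Bard1 and Brca2 had adjusted p values of 0.0179, 0.0323 and 0.0121. The other 6 genes were not called by any of these. Over all 15 alternatives the adjusted p ranged from 0.0179 to 0.361 for Brca1, 0.0323 to 0.490 for Bard1 and 0.0121 to 0.495 for Brca2.

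**Figure D2:**
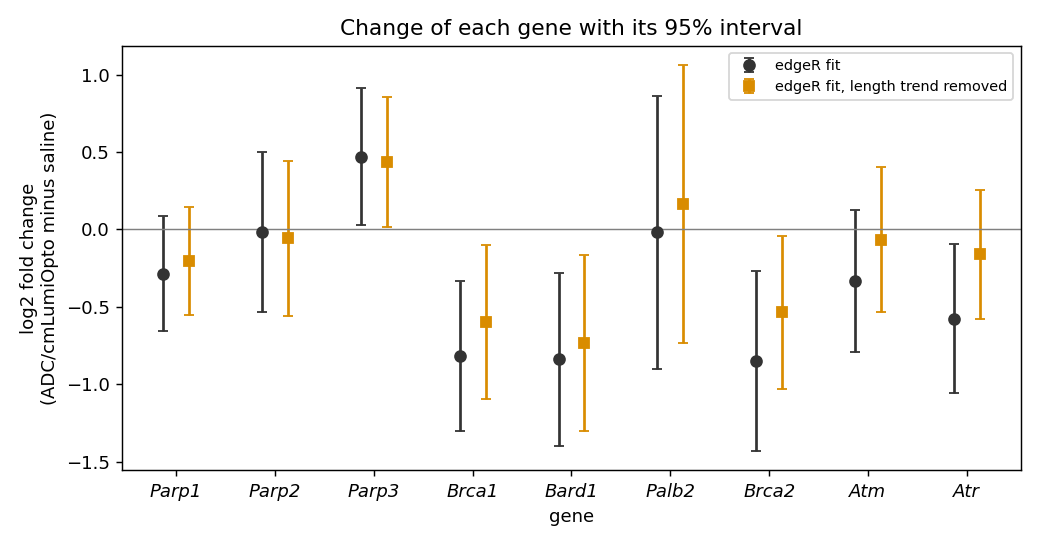
Log2 fold change of each gene between ADC/cmLumiOpto and saline, with its 95% interval, from the edgeR fit (black circles) and from the fit with the trend on gene length removed (orange squares). Brca1, Bard1 and Brca2 kept intervals below 0 in both fits, whereas Atr moved from -0.58 to -0.16.

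Atm (ENSMUSG00000034218, chr9:53350449-53448040, minus strand) was at 25.5 and 24.9 CPM in the saline samples and at 20.9 and 19.1 CPM in the ADC/cmLumiOpto samples. Atm was lower in each treated sample than in each saline sample, with a log2 fold change of -0.33 (standard error 0.19, 95% interval -0.79 to 0.13, adjusted p = 0.331 in edgeR).

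Atr (ENSMUSG00000032409, chr9:95739650-95833834, plus strand) was at 27.2 and 31.4 CPM in the saline samples and at 18.2 and 21.1 CPM in the treated samples, again without overlap. Its log2 fold change was -0.58 (standard error 0.20, 95% interval -1.06 to -0.093, unadjusted p = 0.0262, adjusted p = 0.169 in edgeR). On the per-length scale Atm stood above Atr in every sample, with ratios of 2.15 and 1.81 under saline and 2.63 and 2.07 after treatment, which overlapped. In CPM, Atr lay above Atm (25.5, 24.9, 20.9 and 19.1 CPM) in every sample except ADC/cmLumiOpto replicate 1. The per-length order of the pair thus rests on the listed lengths.

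Gene length moved with these values. Across all tested genes, which are not independent replicates, Spearman's rho of the log2 fold change with gene length was -0.34. Atr, listed at 23629 bases, was longer than 99.7% of the tested genes, Brca2 (13643 bases) longer than 96.6%, Atm (10338 bases) longer than 91.9% and Brca1 (8533 bases) longer than 86.4%. Palb2 (7342 bases), which hardly differed, was longer than 80.5%, whereas Bard1 (5659 bases), among the lowest fold changes, was longer than only 67.9% and Parp1 (5293 bases) than 64.1%. Parp2 and Parp3, at 3628 and 3699 bases, were shorter than the median of 4113 bases. With a smooth trend on length removed from each sample, the log2 fold change of Atr was -0.16 (unadjusted p = 0.385) and that of Atm -0.065 (unadjusted p = 0.748). The values of Brca1, Bard1, Brca2 and Parp3 were then -0.60, -0.73, -0.54 and 0.44, with unadjusted p values of 0.0256, 0.0190, 0.0377 and 0.0432, where 19.8% of all tested genes were under 0.05 (9.87% lower and 9.98% higher). The median of the 9 genes was -0.16 with the trend removed.

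Proliferating-cell markers also moved with them. Of 12 such markers 10 were lower, 8 of them at an unadjusted p under 0.05, and their summed level was 1962 and 1971 CPM in the saline samples and 1354 and 1228 CPM in the treated samples. The log2 fold changes of single markers ranged from -0.98 (Foxm1) to 0.051 (Tyms), a range that holds those of Brca1, Bard1 and Brca2. The mean log2 CPM of this list was 0.53 lower in the treated group. Relative to that mean in the same sample, Brca1 was at -1.84 and -2.15 in the saline samples and at -2.30 and -2.26 in the treated samples, a difference of -0.28 on the log2 scale. Bard1 differed by -0.31, also without overlap of the groups, and Brca2 by -0.33 with overlap. Atr was nearly level, with a difference of -0.046. Parp3 was higher by 1.00, Palb2 by 0.52, Parp2 by 0.51, Parp1 by 0.24 and Atm by 0.19, each without overlap. Since the list mean itself was lower, a gene of unchanged CPM lies about 0.53 higher on this scale. The share of all tested genes without overlap on this scale was not computed. The part of the proliferating-cell and tissue markers in the differences of the 9 genes was not tested.

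**Figure D3:**
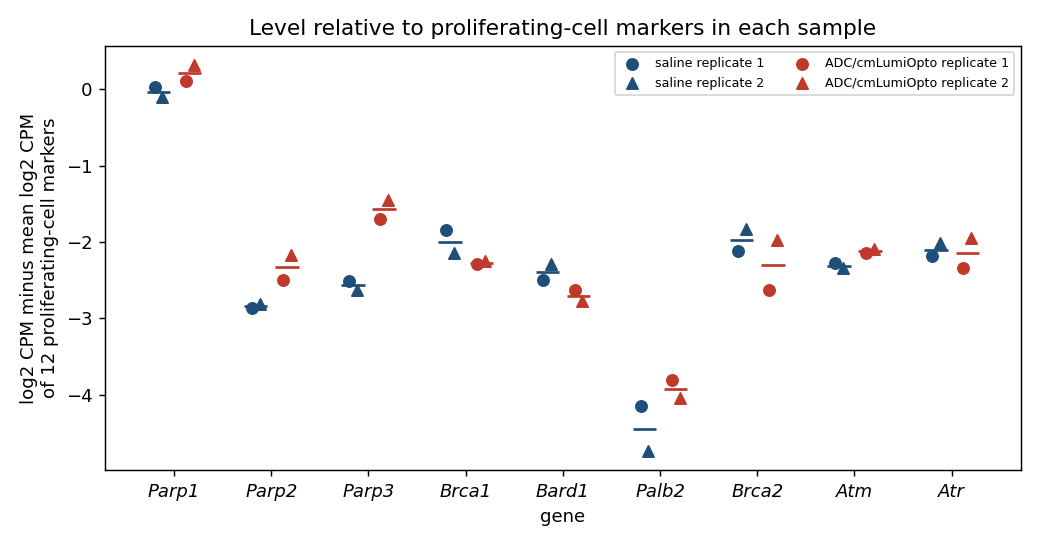
Level of each gene in each sample as its log2 CPM minus the mean log2 CPM of 12 proliferating-cell markers (bars, group means; colors and symbols by group and replicate). On this scale Brca1 and Bard1 lay lower and Parp1, Parp2, Parp3, Palb2 and Atm higher in both treated samples, and Brca2 and Atr overlapped. A gene of unchanged CPM lies about 0.53 higher in the treated group here, since the marker mean was lower.

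Several of the 9 genes start close to a neighbor on the opposite strand, and the values of these neighbors are given beside them. The start of Nbr1, an autophagy receptor gene, lies 194 bases from that of Brca1. Nbr1 was at 165 and 176 CPM in the saline samples and 116 and 126 CPM after treatment, and its log2 fold change was -0.49 (edgeR adjusted p = 0.149), so that both genes of the pair were lower. Npat, which controls histone gene transcription at the start of S phase, begins 307 bases from Atm. It was at 35.7 and 34.9 CPM and then at 23.3 and 22.0 CPM, or -0.64 on the log2 scale (edgeR adjusted p = 0.126) against -0.33 for Atm. Dctn5, a dynactin subunit gene 56 bases from Palb2, was at 42.6, 43.6, 51.5 and 48.6 CPM, or 0.21 on the log2 scale (edgeR adjusted p = 0.439). Ccnb1ip1, 109 bases from Parp2, had at most 44 counts in any sample.

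Promoter windows of the 9 genes, from 250 bases before to 50 after the RefSeq start (GRCm38.p6), were searched on both strands for a pair of E2F motifs, TTTCCCGC and TTTGGCGC, since E2F factors drive many genes of S phase. A match was found for Bard1 and Brca2, 2 of 9 windows, against 1.56% of 32851 RefSeq windows of this length. The CHR motifs TTTGAA and TTCGAA, common in promoters of mitotic genes, were matched for Bard1 and Atr, 2 of 9, against 19.2% of all windows. No match of one motif overlapped another. The stretches around the E2F matches are shown because Bard1 and Brca2 were among the 3 genes with the lowest log2 fold changes, with matched motifs in capitals, each 5′ to 3′ on the strand of its gene.
Bard1 (GRCm38.p6, chr1:71103138-71103217, minus strand): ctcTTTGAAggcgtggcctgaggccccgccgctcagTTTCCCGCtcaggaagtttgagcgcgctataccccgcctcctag
Brca2 (GRCm38.p6, chr5:150522417-150522496, plus strand): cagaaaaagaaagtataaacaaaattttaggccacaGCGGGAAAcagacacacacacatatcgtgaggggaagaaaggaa
The Bard1 match began 209 bases before the start, and the Brca2 match, on the opposite strand, 168 bases before it. Brca1 had no match of these letters in its window, which is shown because the listed starts of Brca1 and Nbr1 are closer than its length.
Brca1 (GRCm38.p6, chr11:101551906-101552205, minus strand): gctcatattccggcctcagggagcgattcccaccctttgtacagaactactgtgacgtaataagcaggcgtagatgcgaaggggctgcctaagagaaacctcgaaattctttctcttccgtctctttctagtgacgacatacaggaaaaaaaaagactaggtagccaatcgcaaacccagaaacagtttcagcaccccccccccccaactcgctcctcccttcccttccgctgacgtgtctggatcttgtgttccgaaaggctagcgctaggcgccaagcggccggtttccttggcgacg
A match or its absence describes these letters only, and no binding was measured.

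The other genes of the same pathways were taken from 6 lists that leave out the 9. No list gene had an adjusted p under 0.05 in the edgeR quasi-likelihood fit used throughout. Other tests called a few, all lower, which were 2 genes of the PARP family and 1 of checkpoint signaling with the edgeR exact test, and 3 of the PARP family, 1 of homologous recombination and 2 of checkpoint signaling with DESeq2. The counts that follow are from the quasi-likelihood fit at an unadjusted p under 0.05, to be read against 12.2% of all tested genes lower and 11.0% higher. Among 19 further genes of the PARP family and of ADP-ribose turnover, 5 were lower and 0 higher, and the median log2 fold change was -0.057. The tankyrase genes Tnks, with 1971 and 2432 counts under saline and 1157 and 1529 after treatment (log2 fold change -1.03), and Tnks2 (-0.56) had 2 of the 3 smallest p values, with the vault protein gene Parp4 (-0.73). The adjusted p values of Tnks, Parp4 and Tnks2 in edgeR were 0.116, 0.123 and 0.131. Tiparp (-0.46) and Zc3hav1 (-0.44) were the others of the 5, each without overlap of the groups. Parp9, Parp12 and Parp14 differed by -0.057, -0.068 and -0.034 on the log2 scale, and their groups overlapped. Parg, which removes the polymer, was at 32.2, 31.9, 30.9 and 31.6 CPM.

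The 45 other homologous recombination genes were divided, with 6 lower, 5 higher and a median of -0.023. The lowest p values belonged to Rad50 (log2 fold change -0.63, adjusted p = 0.123 in edgeR) and Mre11a (-0.52, adjusted p = 0.139 in edgeR), both subunits of the complex that first binds broken ends, and to Mms22l (-0.73, adjusted p = 0.126 in edgeR), which helps repair stalled forks. The helicase genes Blm (-0.73) and Brip1 (-0.58) were also among the 6. The 5 that were higher were Rad52 (0.81), Dna2 (0.68), Rpa3 (0.66), Uimc1 (0.60) and Sem1 (0.57), named after their values were seen, of which Sem1 encodes a small binding partner of BRCA2.

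The 22 other genes of ATM and ATR checkpoint signaling leaned lower, with 20 of 22 below 0 (48.0% of all tested genes were below 0), 5 lower and 0 higher at an unadjusted p under 0.05, and a median of -0.27. Clspn, the adaptor through which ATR activates its target kinase, had 391 and 407 counts under saline and 215 and 323 after treatment, or -0.89 on the log2 scale (edgeR adjusted p = 0.123). Smc1a (-0.59) and Topbp1 (-0.50), a phosphorylation target of ATM and an activator of ATR, came next. With the length trend removed, the median of this list was -0.20.

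Of 17 Fanconi anaemia genes, which repair crosslinks together with the BRCA proteins, 0 passed in either direction, with a median of -0.027. Fancd2 (-0.63), Usp1 (-0.31) and Faap20 (0.31) had the smallest p. Of 17 genes of non-homologous end joining 3 were lower and 2 higher (median -0.058), led by Xrcc5 (-0.52) and Trp53bp1 (-0.52), which protects ends from trimming, and by Shld1 (1.03), which acts downstream of it at 68, 39, 132 and 135 counts. Of 21 tested genes of base excision and single-strand break repair 3 were lower and 0 higher (median -0.16), which were Tdg (-0.82), Lig3 (-0.72) and Lig1 (-0.44).

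**Figure D4:**
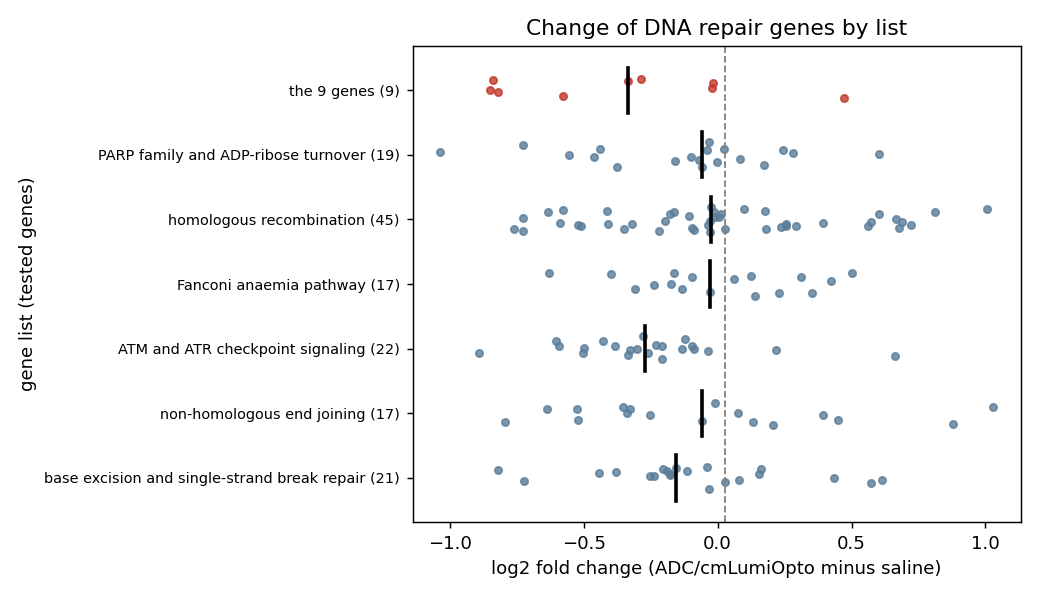
Log2 fold change of each tested gene (points) in the 9 genes (red) and in the 6 other lists (blue), with the number of tested genes in brackets, black bars at the list medians and a dashed line at the median of all tested genes (0.028). The 9 genes (median -0.33) and checkpoint signaling (median -0.27) had the lowest medians of the lists, and the points of all lists reached both sides of 0.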

How the data were processed

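RNA-seq of 2 saline and 2 ADC/cmLumiOpto samples was analyzed, with groups and replicate numbers taken from the sample titles. The authors deposited counts of reads per gene as whole numbers, without normalization. Per the labels the libraries were poly-A selected and HISAT2 and mm39 were used, whereas the methods name HISAT2 and GRCm38, and the program and strand setting of the counting are not given in the sources used here. Of 52073 identifiers shared with GENCODE M21 (GRCm38), 1435 had the same start and end, and none of the 9 genes did, so positions were taken from the deposited table and were not mixed with GRCm38 promoter windows. In the deposited table other columns list gene position, length and type.

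Differential expression was computed with edgeR 4.0.16 under R 4.3.3. The filter filterByExpr (minimum count 10, minimum total 15) was applied, and the kept genes were scaled by TMM and compared by glmQLFit and glmQLFTest with Benjamini-Hochberg adjustment at 0.05, two-sided. The standard error is the log2 fold change divided by the square root of F, and CPM are scaled by TMM. Log2 CPM used a prior count of 2. Alternatives were DESeq2 1.42.0, the edgeR exact test, other normalizations and filters, protein-coding genes only, a replicate block, removal of a trend on gene length (lowess span 0.3), and each sample left out in turn. The procedure was tested on simulated data. The 9 genes and the lists were chosen with earlier results of these data known. The list genes named were the 3 with the smallest p per list, with others named after their values were seen, and the misspelled symbol of Clspn was corrected once the table was read. The methods call the samples biological samples without saying that each is a separate mouse, so p-values measure the spread between these samples, which may be technical. Some results on individual genes are not reported here.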

Additional observations from a re-analysis of the deposited data

How the results depend on the processing

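Of all tested genes, 0 were called in the reported fit, 3553 at an unadjusted p under 0.05. The count was 1332 with DESeq2, 1170 with the edgeR exact test, 2259 without the filter on low counts, 607 with a replicate block, 2 with a replicate block and the length trend removed, and 0 to 218 with any one sample left out (the lone sample of a group being assumed to vary like the other group). Of the 9 genes, 0 were called in the reported fit, 2 with DESeq2, 1 with the exact test, 3 without the filter and 0 under the other alternatives, the replicate block among them. The median log2 fold change of the 9 genes, -0.33, was -0.29 without TMM, -0.25 with upper-quartile scaling, -0.30 with at least 10 counts in every sample, -0.16 with the length trend removed, -0.16 with the block as well, and -0.40 to -0.30 with each sample left out.

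Parp2 and Palb2 changed sign. The median of all tested genes moved as well, from 0.028 in the reported fit to 0.073 without TMM and 0.11 with upper-quartile scaling. Parp2 was at 0.032 without TMM, 0.067 with upper-quartile scaling, 0.021 with at least 10 counts in every sample, 0.011 for protein-coding genes only, and -0.10 to 0.063 with each sample left out. Palb2 was at 0.019, 0.067, 0.019 and 0.011 under the same 4 settings, 0.16 with the length trend removed, 0.17 with the block as well, and -0.27 to 0.28 with each sample left out. Among the 6 other lists, the fit without the filter called 2 PARP family, 2 homologous recombination, 2 checkpoint and 1 base excision repair genes, and the replicate block 1 PARP family gene. With upper-quartile scaling the list medians turned to 0.029 for the PARP family, 0.064 for homologous recombination, 0.056 for the Fanconi anaemia pathway and 0.028 for end joining. The median of all tested genes was 0.11 in that fit, above each of these. Besides Parp2 and Palb2, the other 7 of the 9 genes kept their direction under the 15 alternatives. The cause was not tested. Replicate numbers paired only 2 samples per group, and deviations of same-numbered samples correlated at 0.099 across genes, so the numbers were not taken as pairs. Palb2 had the fewest counts of the 9 genes (69 to 115 in a sample), and the part of depth in its range was not tested.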

Other observations

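Genes were ranked by how closely their profile over the 4 samples followed that of a member, as the root mean square distance of log2 CPM centered on each gene's mean, among 14113 genes at a mean of at least 1 CPM. The nearest to Brca1 were Kif14, a kinesin of cell division (distance 0.033), the copper transporter gene Atp7a (0.035) and Cdca2, which acts at mitotic chromosomes (0.039). Kif14 was at 25.3 and 21.1 CPM in the saline samples and at 14.5 and 13.0 CPM in the treated samples. The nearest to Parp1 were Zic5 (0.0096), Gm20712 (0.010) and Vps53 (0.011), with log2 fold changes of -0.29, -0.30 and -0.29. With 4 samples many genes share a profile by the order of the groups alone, and these distances are a description.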
